A study of Mus musculus with 13 samples.

Results

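The genes described here are 9 receptors of the tumour necrosis factor (TNF) receptor superfamily outside the receptors for BAFF and APRIL: Cd40, Tnfrsf1a, Tnfrsf1b, Tnfrsf4, Tnfrsf9, Tnfrsf18, Fas, Cd27 and Ngfr. They were taken by symbol from the gene count tables of 13 RNA-seq libraries and make up 9 of 23337 symbols. The libraries came from mouse splenic B cells with or without Regnase-1 (Zc3h12a), an endoribonuclease that degrades messenger RNAs. Deficient cells carried floxed Regnase-1 alleles with a hCD20TamCre transgene (Regnase-1f/f hCD20TamCre), and control cells were Regnase-1+/+ with the same transgene, so every group carried the Cre. The transgene name places an inducible Cre under the human CD20 promoter, which is active in B cells. Tamoxifen dosing and the ages of the mice are not given in the sources used here. Cells were either untreated (called naive in the labels) or stimulated through the B cell receptor with anti-IgM F(ab')2 for 4 h. There were 4 control unstimulated libraries and 3 in each of the control stimulated, deficient unstimulated and deficient stimulated groups. B cells had been enriched by removing CD43-bearing cells, and no source used here says how long unstimulated cells spent in culture.

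TNF receptor family proteins are membrane receptors that are clustered by trimeric ligands. Members without a death domain recruit TRAF adaptors and feed into NF-kB and survival pathways, while members with one, such as Fas and TNF receptor 1, can also assemble caspase-activating complexes. In B cells CD40 receives T cell help, and Fas takes part in removing activated cells. Several of the remaining receptors are best known as costimulatory receptors of T cells, where Regnase-1 is known to degrade the messenger RNA of Tnfrsf4 (OX40) through stem-loops in its 3′ untranslated region (UTR).

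Libraries held 21407724 to 33244755 counts, so that the floor of 3 counts corresponded to 0.0902 to 0.140 CPM (counts scaled to library size with TMM factors). All 9 genes passed the filter on low counts, together with 13574 genes tested. Zc3h12a itself lay at 121 to 131 CPM in control unstimulated and 147 to 157 CPM in control stimulated libraries, against 89.2 to 111 and 92.6 to 113 CPM in deficient ones. Genotypes did not overlap in either state. The counts cover the whole gene, and the exons removed from the floxed allele are not given here, so reads left in deficient libraries do not measure how complete the deletion was. The 8 B cell markers together reached 5586 to 6612 CPM in unstimulated and 2679 to 2975 CPM in stimulated libraries. Cd79a, a signalling chain of the B cell receptor, lay at 1869.5 to 2403 CPM before and 462 to 535 CPM after stimulation, while Cr2 lay at 83.6 to 138 and 338 to 529 CPM. By Xist and Y-linked reads, control numbers 2, 3 and 4 and deficient number 1 were female and the others male, so sex and genotype were partly confounded. Within a group, libraries differed by more than sampling noise (chi-square per gene of 8.22 to 36.1). Since no label ties a number to an animal of its own, p-values measure the spread between these libraries, which may be partly technical. In bulk samples, fewer cells of a type and less RNA per cell cannot be told apart.

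Per kilobase of exon, Tnfrsf1b and Cd40 stood above the other 7 receptors in each of the 4 groups. In control unstimulated cells the length-scaled level was 66.2 ± 2.63 CPM per kb for Tnfrsf1b (SD, n = 4). Cd40 followed at 25.6 ± 1.56 CPM per kb, apart from both of its neighbours in the order. Tnfrsf18 came next at 6.26 ± 1.59 CPM per kb. From there down, each range overlapped that of the next gene: Tnfrsf4 at 4.10, Ngfr at 3.62, Tnfrsf1a at 3.58, Tnfrsf9 at 2.48, Cd27 at 2.30 and Fas at 2.23 CPM per kb. Scaled by the longest transcript in place of all exons, Tnfrsf1a (4.30) passed Ngfr (3.62), and Cd27 (3.43) passed Tnfrsf9 (3.19). The order in deficient unstimulated cells was the same down to Tnfrsf9, with Fas (1.91 CPM per kb) and Cd27 (1.69 CPM per kb) exchanged. After stimulation Ngfr came last and apart from every other receptor, at 0.278 ± 0.106 CPM per kb in control cells and 0.225 ± 0.105 CPM per kb in deficient cells (SD, n = 3 each). Tnfrsf18 lay between Tnfrsf4 and Fas in control stimulated cells at 4.65 CPM per kb, and between Tnfrsf1a and Cd27 in deficient stimulated cells at 2.19 CPM per kb.

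The 3′ UTRs are shown for the members that hold a sequence of the kind Regnase-1 is known to bind, a hairpin with a 3-base pyrimidine-purine-pyrimidine loop. The longest annotated 3′ UTR of each gene (GENCODE vM21, mm10) was searched on the transcript strand for such loops closed by at least 5 Watson-Crick pairs. 3 of the 9 genes held 1 match each. In the lines below the loop is in capitals.
Tnfrsf4 (chr4:156016541-156016555, plus strand): guaugcUAUgcauac
Fas (chr19:34327617-34327631, plus strand): uucauaUACuaugaa
Tnfrsf1b (chr4:145215077-145215089, minus strand): aaggcCACgccuu
The Tnfrsf4 and Fas hairpins have stems of 6 pairs, in UTRs of 180 and 448 bases, and the Tnfrsf1b hairpin has 5 pairs in a UTR of 2324 bases. Over 11601 tested genes with a 3′ UTR, 24.6% held at least 1 match. The share was 4.0% where the UTR was shorter than 300 bases, 12.7% between 300 and 1000 bases and 28.5% between 1000 and 3000 bases. A match is a description of these letters and not a binding site, and no match was found in Cd40, Tnfrsf1a, Tnfrsf9, Tnfrsf18, Cd27 or Ngfr.

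With stimulation of control cells, Cd40, Tnfrsf1b, Fas and Tnfrsf4 rose and Ngfr fell, at an adjusted p under 0.05 in a quasi-likelihood fit of all genes (edgeR, p-values adjusted by Benjamini and Hochberg's method). The 4 higher calls among 9 stand beside 28.5% of all tested genes called higher, and the 1 lower call beside 31.8% called lower. In deficient cells Cd40, Tnfrsf1b and Fas rose and Tnfrsf18 and Ngfr fell, beside 28.3% of all tested genes called higher and 29.6% called lower. The median log2 difference of the 9 genes was 0.40 in control and 0.33 in deficient cells, beside -0.13 and -0.11 over all genes tested. When libraries with the same number were treated as a pair (unstimulated and stimulated libraries of 1 genotype deviated together), Tnfrsf9 and Tnfrsf1a were called as well. That gave 7 of 9 genes in control cells, beside 65.2% of all tested genes called with the same pairing. It likewise gave 7 of 9 in deficient cells, beside 65.6%.

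**Figure D1:**
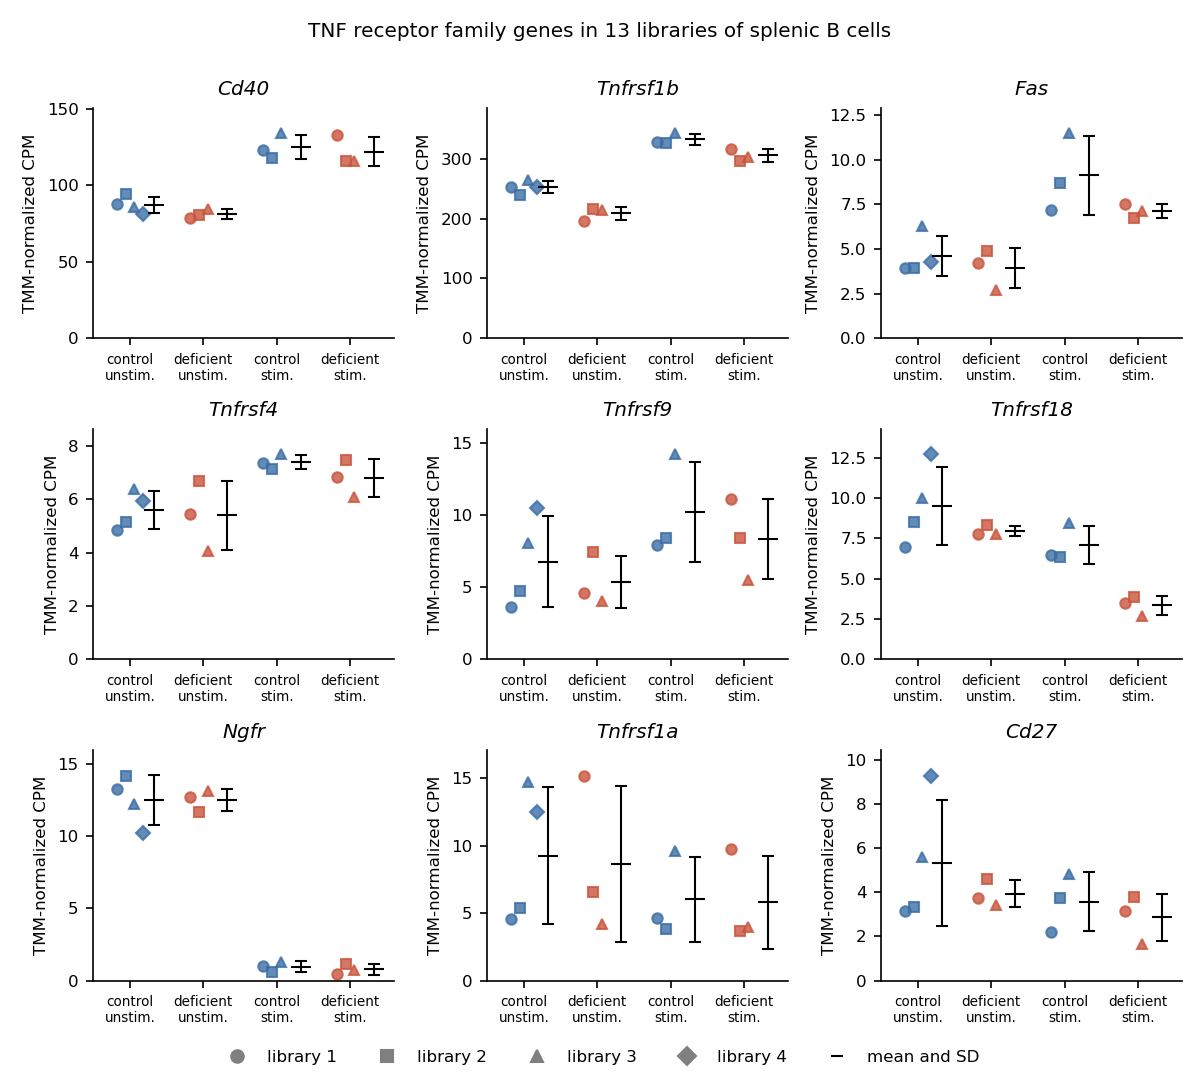
TMM-normalized CPM (linear axes from 0) of the 9 receptor genes in each library, with the mean and SD of each group beside the points. Symbols give the library number and colours the genotype (blue control, red deficient); Ngfr lies between 10.2 and 14.2 CPM in unstimulated and between 0.451 and 1.31 CPM in stimulated libraries.

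**Figure D2:**
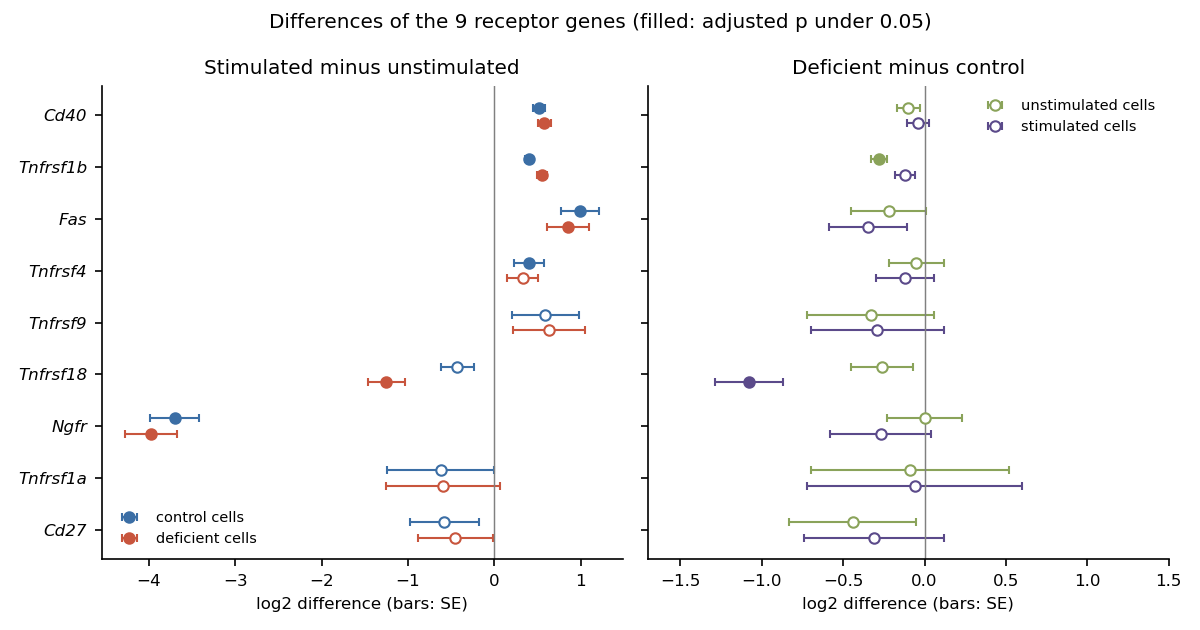
Log2 differences of the 9 receptor genes with their standard errors, for stimulation within each genotype (left) and for genotype within each state (right). Filled points passed an adjusted p of 0.05; on the right only Tnfrsf1b in unstimulated cells and Tnfrsf18 in stimulated cells are filled.

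Cd40 is the receptor for CD40 ligand on helper T cells. The control unstimulated libraries held 88.0, 94.0, 85.7 and 81.3 CPM and the control stimulated ones 123, 118 and 134 CPM. Deficient cells gave 78.5, 80.5 and 84.6 CPM unstimulated and 133, 116 and 116 CPM stimulated. Every stimulated library lay above every unstimulated one, whichever the genotype. The log2 difference with stimulation was 0.52 ± 0.07 (SE, adjusted p = 4.6e-06) in control cells. It was 0.58 ± 0.07 (adjusted p = 3.36e-06) in deficient cells. Between genotypes the log2 difference of Cd40 was -0.10 unstimulated (95% interval -0.26 to 0.05) and -0.04 stimulated (-0.20 to 0.12), neither of which passed the test.

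Tnfrsf1b encodes TNF receptor 2, which has no death domain. It was the receptor with the most reads, at 253, 239.6, 264 and 253 CPM in unstimulated cells of control and at 196, 216 and 214 CPM in those of deficient genotype. After stimulation the control libraries held 328, 326 and 343 CPM and the deficient ones 317, 296 and 304 CPM. Stimulated libraries lay above unstimulated ones in each genotype, and deficient libraries lay below control libraries in each state without overlap. In stimulated cells 1362 of 13574 tested genes were likewise lower in deficient libraries without overlap, so such a separation was common there. The share of genes that separate this way in unstimulated cells was not counted. With stimulation Tnfrsf1b rose by a log2 difference of 0.40 ± 0.05 (adjusted p = 6.37e-06) in control and of 0.55 ± 0.06 (adjusted p = 4.32e-07) in deficient cells. In unstimulated cells it was lower in deficient than in control libraries, with a log2 difference of -0.28 ± 0.05 (1.21-fold, adjusted p = 0.0374). It was the only one of the 9 genes called in that comparison, in which 0.324% of all tested genes were called. Leaving out 1 library at a time, the call held only without control unstimulated library 2 or deficient stimulated library 1, and the adjusted p ranged from 0.0289 to 0.149 with log2 differences of -0.30 to -0.23. Over all 24 alternatives 9 called it. The call was also lost when only the groups compared were fitted (adjusted p = 0.0726), without deficient number 1 (0.0722) and against a minimum fold of 1.5 (1.0). With the number as a block across genotypes it was lost too (0.102), but the genotypes share numbers only as labels. A fit with a term for sex gave a log2 difference of -0.28 (adjusted p = 0.0162), and among males alone the levels were 253 CPM against 216 and 214 CPM. In stimulated cells the log2 difference of -0.12 ± 0.06 did not pass the test (adjusted p = 0.402, 95% interval -0.25 to 0.01).

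Fas, the death receptor for Fas ligand, was low in unstimulated cells and rose with stimulation in both genotypes. Control unstimulated libraries held 3.91, 3.92, 6.30 and 4.28 CPM and control stimulated libraries 7.18, 8.70 and 11.5 CPM. Deficient libraries held 4.21, 4.88 and 2.72 CPM unstimulated and 7.53, 6.76 and 7.16 CPM stimulated. All stimulated libraries were above all unstimulated ones. The log2 difference was 0.99 ± 0.22 (adjusted p = 0.00108) in control and 0.85 ± 0.24 (adjusted p = 0.00663) in deficient cells. In control cells Fas was still called against a minimum fold of 1.5, with an adjusted p of 0.0454, and in deficient cells it was not (adjusted p = 0.157). Between genotypes Fas differed by a log2 value of -0.22 ± 0.23 unstimulated and -0.35 ± 0.24 stimulated, without passing the test.

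Promoter windows of 300 bases (250 before to 50 after the start site, RefSeq, GRCm38.p6) were available for 8 of the 9 genes, all but Cd40. They were searched on both strands for AP-1 sites (TGANTCA) and for the NF-kB consensus, since genes bound by these factors are widely known to respond to B cell receptor signals. Among the 8 genes only Fas and Tnfrsf9 held a match. Both genes rose with stimulation (Tnfrsf9 in the paired fit). Tnfrsf1b and, in control cells, Tnfrsf4 also rose, and their windows held no match. The window at the first annotated start site of Tnfrsf9 (chr4:150919905-150920204) held no match either. The windows with matches are shown 5′ to 3′, with the matches in capitals.
Fas (chr19:34290409-34290708, plus strand): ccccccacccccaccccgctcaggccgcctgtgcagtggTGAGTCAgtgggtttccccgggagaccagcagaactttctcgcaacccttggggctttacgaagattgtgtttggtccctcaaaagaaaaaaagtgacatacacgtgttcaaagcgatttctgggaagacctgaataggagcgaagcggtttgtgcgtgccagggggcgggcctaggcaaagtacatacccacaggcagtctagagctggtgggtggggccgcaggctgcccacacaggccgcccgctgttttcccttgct
Tnfrsf9, second annotated start site (chr4:150927749-150928048, plus strand): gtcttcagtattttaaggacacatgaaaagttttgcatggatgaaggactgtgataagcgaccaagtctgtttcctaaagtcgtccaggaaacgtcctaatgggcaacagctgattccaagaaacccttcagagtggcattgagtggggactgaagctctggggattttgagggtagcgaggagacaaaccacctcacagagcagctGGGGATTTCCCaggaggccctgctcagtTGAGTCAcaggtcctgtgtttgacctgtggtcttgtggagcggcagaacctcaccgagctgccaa
The Fas window has 1 AP-1 match, 211 bases before the start site. The Tnfrsf9 window has 2 overlapping NF-kB matches, the first 43 bases before the start site, and 1 AP-1 match 15 bases before it, with no overlap between the motifs. Of 32851 promoter windows of the same length, 8.46% held an NF-kB match and 7.81% an AP-1 match. These matches are descriptions of sequence, and binding was not measured.

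Tnfrsf4, Tnfrsf9, Tnfrsf18 and Cd27 encode OX40, 4-1BB, GITR and CD27, receptors that costimulate T cells. Tnfrsf4 (chr4:156013843-156016612) and Tnfrsf18 (chr4:156026164-156028895) lie on the same strand of chromosome 4 with 9551 bases between them (mm10), and Tnfrsf9 and Tnfrsf1b lie on the same chromosome. With stimulation, the log2 differences of these neighbours were 0.40 and 0.33 for Tnfrsf4 in control and deficient cells and -0.43 and -1.25 for Tnfrsf18; their difference was not tested.

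For Tnfrsf4, control unstimulated libraries held 4.87, 5.16, 6.40 and 5.95 CPM and control stimulated libraries 7.38, 7.16 and 7.69 CPM, with no overlap. Deficient libraries held 5.46, 6.68 and 4.08 CPM unstimulated and 6.85, 7.48 and 6.08 CPM stimulated, and these overlapped. The log2 difference was 0.40 ± 0.17 in control cells (adjusted p = 0.0495) and 0.33 ± 0.18 in deficient cells (adjusted p = 0.138). The call in control cells was at the threshold: it held in 4 of 13 fits that left out 1 library (adjusted p from 0.0285 to 0.119) and was lost with upper-quartile scaling (adjusted p = 0.117). Between genotypes the Tnfrsf4 log2 difference was -0.05 ± 0.17 unstimulated (95% interval -0.43 to 0.34). It was -0.12 ± 0.18 stimulated (-0.53 to 0.29), and neither passed the test.

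Tnfrsf18 was the receptor that differed most between genotypes after stimulation. Control stimulated libraries held 6.47, 6.36 and 8.44 CPM and deficient stimulated libraries 3.52, 3.84 and 2.66 CPM, from 174 to 225 and from 64 to 122 counts. The groups did not overlap. The log2 difference was -1.08 ± 0.21 (2.12-fold lower in deficient cells, adjusted p = 0.0127), and Tnfrsf18 was the only one of the 9 genes called, beside 2.01% of all genes tested. All 9 genes had a log2 difference below 0 in this comparison, with a median of -0.27 beside 0.0 over all tested genes, and 8 of 9 had one in unstimulated cells, with a median of -0.22 beside -0.02. The medians ranged from -0.37 to -0.04 (stimulated) and from -0.29 to -0.08 (unstimulated) over the 24 alternatives. In stimulated cells the median was -0.04, with 5 of 9 genes below 0, without control stimulated library 3, -0.06 without deficient stimulated library 3, and -0.12 with a term for sex. In unstimulated cells the median was -0.08 with the number as a block across genotypes, and -0.08 without control unstimulated library 4. It was -0.11 without control unstimulated library 3, -0.13 without deficient unstimulated library 3 and -0.09 with a term for sex. The Tnfrsf18 call was lost without control stimulated library 3 (log2 difference -0.94, adjusted p = 0.0622) and without deficient stimulated library 3 (-0.95, adjusted p = 0.0602). Against a minimum fold of 1.5 it was not called (adjusted p = 1.0). A fit with a term for sex gave -1.0 (adjusted p = 0.0115). Among males the levels were 6.47 CPM against 3.84 and 2.66 CPM, and among females 6.36 and 8.44 CPM against 3.52 CPM.

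In unstimulated cells control libraries held 6.97, 8.53, 9.99 and 12.7 CPM of Tnfrsf18 and deficient ones 7.78, 8.34 and 7.79 CPM, and the groups overlapped. The genotype difference there was -0.26 ± 0.19 on the log2 scale (adjusted p = 0.775). With stimulation Tnfrsf18 fell in deficient cells, with a log2 difference of -1.25 ± 0.21 (2.38-fold lower, adjusted p = 9.55e-05). In control cells the log2 difference of -0.43 ± 0.19 did not pass the test (adjusted p = 0.0677), nor did it in 21 of 24 alternatives, with -0.26 (adjusted p = 0.119) when same-numbered libraries were paired. It passed with upper-quartile scaling (-0.50, adjusted p = 0.0431) and without control unstimulated library 1 (-0.55, adjusted p = 0.0184) or control stimulated library 3 (-0.57, adjusted p = 0.0365). Tnfrsf18 overlaps the antisense gene Gm16008 by 414 exonic bases, and since no source used here names the strand setting of the counting, reads of the pair cannot be told apart.

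Whether the stimulation response itself differed by genotype was tested as an interaction. No receptor passed, beside 0.00737% of all tested genes (1 of 13574, with 510 at an unadjusted p under 0.05). Tnfrsf18 was the 1 receptor at an unadjusted p under 0.05, with a difference of responses of -0.82 ± 0.28 (adjusted p = 1.0). DESeq2 called 0 of the 9 receptors and gave Tnfrsf18 no adjusted p. With same-numbered libraries paired, the difference of responses was -1.0 ± 0.21 (adjusted p = 0.0385), in a fit that called 0.501% of all genes. That fit had 4 residual degrees of freedom, and it was the 1 of 22 alternatives that called this difference. Per pair of libraries, Tnfrsf18 changed by -0.11, -0.42 and -0.24 on the log2 scale in control and by -1.15, -1.12 and -1.55 in deficient cells. The pairs did not overlap between genotypes, and the exact two-sided permutation p was 0.1, the smallest that 3 pairs against 3 allow. For Tnfrsf1b the changes per pair were likewise apart, with means of 0.40 ± 0.04 in control and 0.55 ± 0.12 in deficient cells (SD, n = 3 each), and the interaction did not pass the test (adjusted p = 1.0). For the other 7 genes the changes per pair overlapped between genotypes. The share of all tested genes with changes per pair apart was not counted, so these separations have no background beside them. The comparisons share libraries with one another, so their values are given side by side only.

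**Figure D3:**
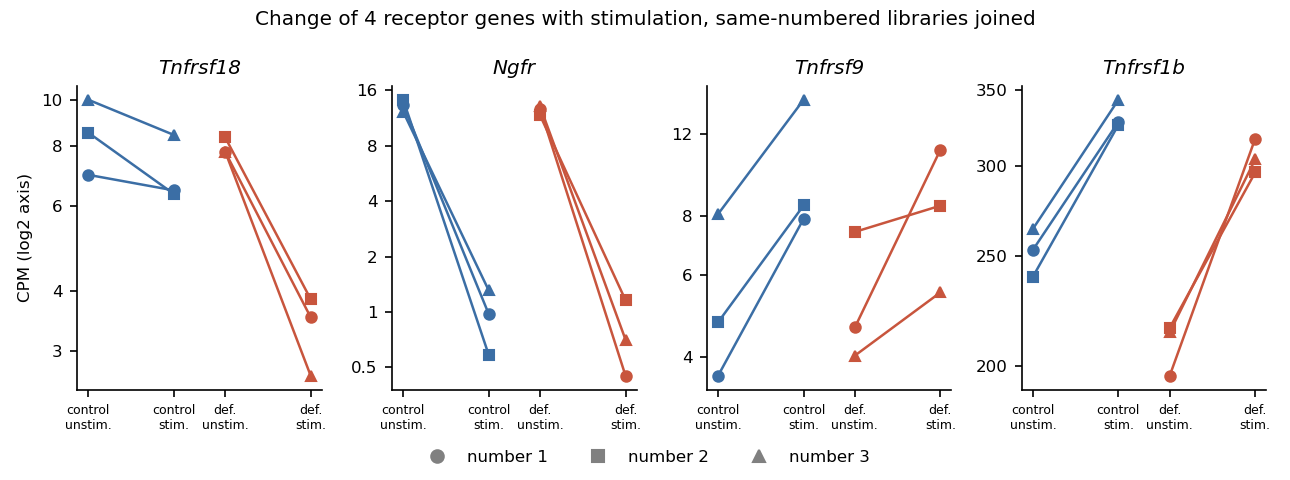
CPM on log2 axes of 4 receptor genes, with lines joining the unstimulated and stimulated library of the same number in control (blue) and deficient cells (red, def.). Tnfrsf18 changes by -0.11 to -0.42 on the log2 scale in the control pairs and by -1.12 to -1.55 in the deficient pairs; each panel has its own axis.

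Tnfrsf9 varied widely between libraries of a group. Control unstimulated libraries held 3.65, 4.75, 8.09 and 10.5 CPM and control stimulated libraries 7.90, 8.44 and 14.2 CPM. Deficient libraries held 4.63, 7.41 and 4.03 CPM unstimulated and 11.1, 8.43 and 5.50 CPM stimulated. Groups overlapped, and without pairing the log2 differences with stimulation of 0.59 ± 0.39 in control and 0.63 ± 0.42 in deficient cells did not pass the test (adjusted p = 0.213 and 0.223). Within each of the 6 same-numbered pairs the stimulated library was the higher one. With the pairing Tnfrsf9 rose by 0.91 ± 0.18 on the log2 scale in control cells (adjusted p = 0.000178) and by 0.63 ± 0.18 in deficient cells (adjusted p = 0.00475). Between genotypes the Tnfrsf9 log2 differences were -0.33 ± 0.39 unstimulated and -0.29 ± 0.41 stimulated, and neither passed. The gene overlaps Camta1 on the opposite strand, outside annotated exons.

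Cd27, a marker of memory B cells in humans and a receptor of T and NK cells, did not pass in any comparison. Its control unstimulated libraries held 3.17, 3.33, 5.59 and 9.29 CPM and its control stimulated libraries 2.18, 3.73 and 4.84 CPM. In deficient cells the values were 3.74, 4.61 and 3.44 CPM unstimulated and 3.15, 3.77 and 1.67 CPM stimulated. The log2 difference with stimulation was -0.58 ± 0.40 in control and -0.45 ± 0.43 in deficient cells, with 95% intervals of -1.48 to 0.32 and -1.42 to 0.51. Cd27 lies inside Vamp1, on the opposite strand and clear of its exons, and shares 129 exonic bases with Mir8113.

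Between libraries of a group, the sums of NK cell markers and of T cell markers moved with Cd27 and, in most groups, with Tnfrsf9. The 7 NK cell markers, all matched, reached 12.3, 15.5, 42.3 and 45.1 CPM when summed in control unstimulated libraries 1 to 4, which ranks these libraries as Tnfrsf9 and Cd27 do. In deficient unstimulated libraries the sums were 24.2, 28.8 and 12.9 CPM. After stimulation they were 9.49, 9.72 and 34.6 CPM (control) and 17.4, 21 and 7.79 CPM (deficient). Of 10 T cell markers 9 were matched. Unstimulated libraries had sums of 33.3, 42.7, 63.5 and 80.0 CPM (control) and 51.8, 57.6 and 42.4 CPM (deficient). Stimulated libraries had sums of 73.4, 86.1 and 102 CPM (control) and 96.4, 107 and 91.8 CPM (deficient). The T cell sum ranked the libraries as Cd27 did in each group, and as Tnfrsf9 did in the same groups as the NK cell sum. Its largest member in each group was Lck, at 20.6 to 31.4 CPM unstimulated and 53.5 to 83.9 CPM stimulated, and Cd5 lay at 1.84 to 5.36 and 7.93 to 13.8 CPM. The group means of Cd3e, Cd3d, Cd3g, Cd4 and Cd28 were lower after stimulation in both genotypes. The mean of Cd8a was higher in both, from 1.44 to 1.63 CPM (control) and from 1.03 to 1.72 CPM (deficient). Cd8b1 had a lower mean in control cells (1.06 to 0.707 CPM) and a higher one in deficient cells (0.724 to 0.843 CPM). Cd3e, which defines T cells, lay between 0.25 and 6.74 CPM and was highest in control unstimulated library 4. No NK or T cell marker was at 0 in a whole group. Their part in the levels of Tnfrsf9, Cd27, Tnfrsf4 and Tnfrsf18 was not tested. In control unstimulated and deficient stimulated cells Tnfrsf18 also followed the order of the NK cell sums and of the T cell sums. It did not in control stimulated cells (6.47, 6.36 and 8.44 CPM) or deficient unstimulated cells (7.78, 8.34 and 7.79 CPM). In the stimulated groups, where Tnfrsf18 differed by genotype, Cd3e lay at 0.325, 0.767 and 2.85 CPM (control) and 1.76, 1.45 and 0.25 CPM (deficient), and the groups overlapped. Foxp3, the defining gene of regulatory T cells, which carry much GITR, lay at 1.1, 1.28 and 1.95 CPM in control stimulated and 0.856, 1.19 and 1.46 CPM in deficient stimulated libraries, which overlapped too. The sum over all 5 regulatory T cell markers was 43.2 to 70.2 CPM (control) and 57.4 to 74.9 CPM (deficient) before stimulation and 453 to 510.2 CPM (control) and 428 to 539 CPM (deficient) after it, of which Il2ra made up 443 to 494 CPM in control stimulated cells. Of 64 markers of cell types other than B cells, 7 were lower and 1 higher in deficient than in control stimulated libraries without overlap, beside 10% lower and 7.8% higher over all tested genes. The dendritic cell marker Zbtb46 lay at 38.1 to 50.6 CPM (control) and 15.4 to 20 CPM (deficient), and the myeloid marker C1qb at 3.54 to 6.94 and 1.79 to 2.61 CPM. The other dendritic cell and myeloid markers overlapped. Mean levels of Flt3, Itgax, Siglech, Ccr9 and Clec9a were higher in deficient stimulated cells, and that of Xcr1 was lower. Among myeloid markers Lyz2, Csf1r and Fcgr1 had higher means there and the rest lower ones. Zbtb46 itself rose with stimulation, from a mean of 12.5 to 43.7 CPM (control) and from 6.9 to 18.3 CPM (deficient). Among plasma cell markers Sdc1 lay at 18.8 to 22.0 and 11.7 to 13.8 CPM and Prdm1 at 18.9 to 21 and 13.2 to 17.7 CPM, and the sum of all 6 was 3128 to 3518 and 2444 to 2864 CPM, mostly Irf4. Mean levels of Xbp1 (59.0 and 67.4 CPM) and Tnfrsf17 (0.185 and 0.328 CPM) were higher in deficient stimulated cells, and that of Igj (251 and 224 CPM) was lower. The other markers lower without overlap were Col1a2 and Cd5, and the higher one was Lck. The part of these cell types in the Tnfrsf18 difference was not tested.

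Ngfr, the low-affinity neurotrophin receptor with a death domain, showed the largest change of the 9 genes. Before stimulation the control libraries held 13.3, 14.2, 12.2 and 10.2 CPM and the deficient ones 12.7, 11.7 and 13.1 CPM, from 289 to 460 counts. After it they held 0.975, 0.585 and 1.31 CPM (control) and 0.451, 1.16 and 0.708 CPM (deficient), from 10 to 37 counts. Every stimulated library was above the floor of 3 counts and far below every unstimulated library. The log2 difference was -3.70 ± 0.28 in control (13.0-fold lower, adjusted p = 1.17e-08) and -3.97 ± 0.30 in deficient cells (15.6-fold lower, adjusted p = 1.08e-08). On the deposited log2 values limma gave -2.67 (6.38-fold) and -2.83 (7.09-fold). Between genotypes Ngfr differed by 0.00 ± 0.23 unstimulated (95% interval -0.52 to 0.52) and by -0.27 ± 0.31 stimulated (-0.98 to 0.44). The genes whose levels ran most like Ngfr, by root mean square difference of centred log2 CPM over the 13 libraries, were Spns2 (0.31), Zfp831 (0.369) and Rasgrp2 (0.375).

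Tnfrsf1a encodes TNF receptor 1, the death domain receptor for TNF. Control unstimulated libraries held 4.53, 5.37, 14.7 and 12.5 CPM and control stimulated libraries 4.61, 3.80 and 9.64 CPM. Deficient libraries held 15.2, 6.53 and 4.21 CPM unstimulated and 9.78, 3.68 and 3.96 CPM stimulated. The spread within a group was wider than any difference between groups, and the log2 differences with stimulation, -0.62 ± 0.62 in control and -0.59 ± 0.66 in deficient cells, did not pass the test (adjusted p = 0.413 and 0.475). Without deficient unstimulated library 1 the value in deficient cells was 0.10 (adjusted p = 0.921). With same-numbered libraries paired, Tnfrsf1a fell by 0.38 ± 0.16 in control (adjusted p = 0.0498) and by 0.55 ± 0.17 in deficient cells (adjusted p = 0.0069). Pair by pair, Tnfrsf1a changed by 0.03, -0.50 and -0.60 (control) or by -0.63, -0.83 and -0.09 (deficient), so 1 control pair was not lower after stimulation. Between genotypes the log2 differences were -0.09 ± 0.61 and -0.06 ± 0.66, with 95% intervals of -1.47 to 1.28 and -1.56 to 1.44.

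Myeloid markers moved with Tnfrsf1a. All 10 were matched, and their sum in control unstimulated libraries 1 to 4 was 173, 203, 466 and 423 CPM, so that Tnfrsf1a was high where they were high. Deficient unstimulated libraries had 529, 229.7 and 156 CPM. Stimulated libraries had 101, 94.6 and 191 CPM (control) and 194, 99.3 and 84.4 CPM (deficient). In each of the 6 pairs the myeloid sum was lower in the stimulated library. Lyz2 and Csf1r had the largest group means in that sum. The mean of Cd14 was higher after stimulation, from 12.1 to 13.7 CPM (control) and from 8.6 to 10.3 CPM (deficient). Means of the other myeloid markers were lower after stimulation in both genotypes. Lyz2, a defining gene of myeloid cells, ranged from 21.1 to 322 CPM, and no myeloid marker was at 0 in a whole group. The genes that ran most like Tnfrsf1a were Sirpa (0.233), Tbc1d2b (0.238) and Arap3 (0.238). The part of myeloid RNA in the Tnfrsf1a values was not tested.

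**Figure D4:**
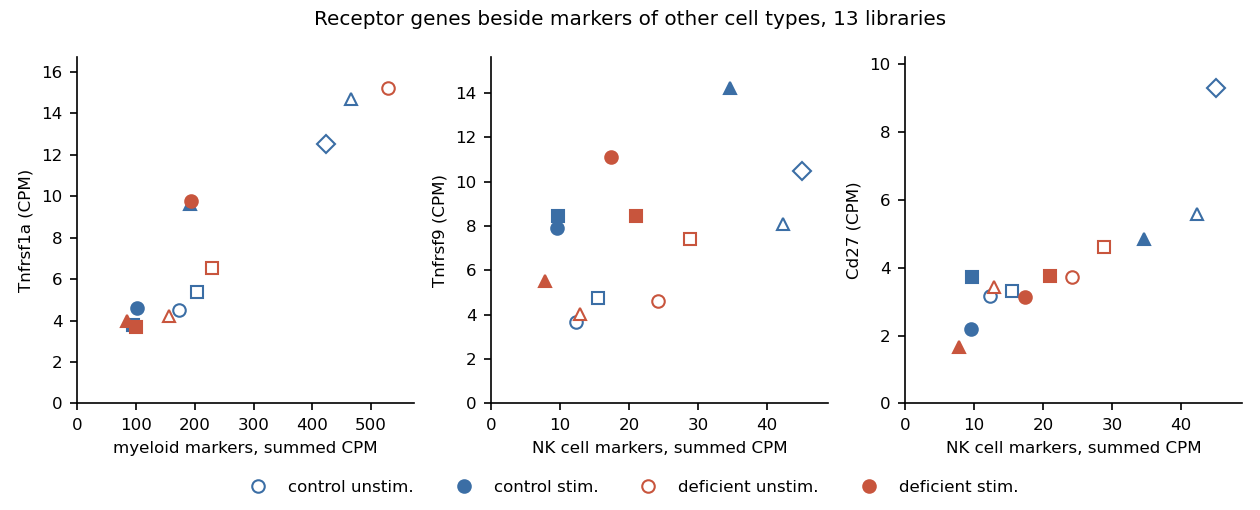
CPM of Tnfrsf1a against the summed CPM of 10 myeloid markers, and of Tnfrsf9 and Cd27 against 7 NK cell markers, one point per library (open unstimulated, filled stimulated, blue control, red deficient; circle, square, triangle and diamond for numbers 1 to 4). Control unstimulated library 3 and deficient unstimulated library 1, at 466 and 529 CPM of myeloid markers, have the highest Tnfrsf1a values, 14.7 and 15.2 CPM.

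The genes most alike in profile to the remaining receptors were found by the same measure. For Cd40 they were Mrpl37 (0.0553), Snrpc (0.0658) and Rnf114 (0.0663), and for Tnfrsf1b Hivep1 (0.0661), Mrpl32 (0.0663) and A830080D01Rik (0.0701). For Tnfrsf4 they were Nsun3 (0.12), Tmem51 (0.131) and Zfp516 (0.131), and for Fas Serpinb6b (0.199), Apip (0.225) and Adora2a (0.227). For Tnfrsf18 they were Adam22 (0.233), Dok2 (0.276) and Clcf1 (0.286). Adam22 had log2 differences of -1.20 between genotypes in stimulated cells and -0.24 in unstimulated cells, next to -1.08 and -0.26 for Tnfrsf18. The genes nearest to Tnfrsf9 were Ccl5 (0.311), Il12rb2 (0.316) and Trim69 (0.319), and those nearest to Cd27 were Il18r1 (0.263), Epas1 (0.273) and Dok2 (0.289).

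Ligands of the family included large changes with stimulation. Of 22 ligand genes 15 were tested, and 5 rose and 1 fell in control cells, against 3 and 1 in deficient cells. Over all tested genes the called shares were 28.5% higher and 31.8% lower (control), and 28.3% higher and 29.6% lower (deficient). The ligands' median log2 differences were 0.49 and 0.05, beside -0.13 and -0.11 over all genes. Tnf, the ligand of Tnfrsf1a and Tnfrsf1b, rose from 8.88 ± 2.18 to 36.7 ± 10.2 CPM in control cells (SD, n = 4 and 3), a log2 difference of 2.05 (adjusted p = 1.14e-05). In deficient cells Tnf rose by 1.68 on the log2 scale (adjusted p = 0.000152). Ltb, a subunit of membrane lymphotoxin, fell by 2.62 on the log2 scale in control cells, from 289.7 to 47.1 CPM, and by 2.86 in deficient cells. Ltb was also the 1 ligand called between genotypes, in stimulated cells (-0.48 ± 0.09, adjusted p = 0.00708). In that comparison 2.01% of all tested genes were called. Tnfsf10 (TRAIL) rose by 1.45 and 1.72 in control and deficient cells, and Tnfsf14 (LIGHT) by 1.39 in control cells, with 0.67 in deficient cells (adjusted p = 0.101). Tnfsf9, the ligand of Tnfrsf9, rose by 0.77 in control (adjusted p = 0.0149) and 0.96 in deficient cells (adjusted p = 0.00709).

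Among 17 tested genes of the 19 other superfamily receptors, 4 rose and 2 fell in control cells and 6 rose and 2 fell in deficient cells, beside the same shares of all genes (28.5% and 31.8%, 28.3% and 29.6%). The medians were 0.06 and 0.26. Tnfrsf21 (death receptor 6) rose by 1.22 in control and 1.30 in deficient cells on the log2 scale. Tnfrsf8 (CD30) rose by 2.99 and 1.99 from levels of 0.442 and 0.566 CPM, and Tnfrsf22, a decoy receptor, by 0.84 in each. Tnfrsf13c, the BAFF receptor, rose by 0.98 in control and 0.42 in deficient cells. Between genotypes in stimulated cells Tnfrsf13b (TACI) was higher in deficient cells (1.05 ± 0.11, adjusted p = 5.34e-05) and Tnfrsf13c lower (-0.46 ± 0.07, adjusted p = 0.00257). The other 15 tested did not pass, and 2.01% of all tested genes were called in this comparison.

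Of 24 TRAFs and receptor-proximal adaptors, 10 rose and 12 fell in control cells, beside 28.5% and 31.8% of all tested genes, and 9 rose and 11 fell in deficient cells, beside 28.3% and 29.6%. Their medians were -0.17 and -0.09. Tnfaip3 (A20), which restrains NF-kB signalling, rose from 166 ± 20.5 to 893 ± 28.4 CPM in control cells (log2 difference 2.42 ± 0.10, adjusted p = 4.47e-11), and by 2.20 in deficient cells. Traf1 rose by 1.37 and 1.27, Traf4 by 0.94 and 1.08, and Tank by 0.82 and 1.01 in control and deficient cells, while Traf5 fell by 1.75 and 1.5. Between genotypes in stimulated cells 1 adaptor was higher and 2 lower in deficient cells: Tnip1 (0.32, adjusted p = 0.00658), Tnfaip3 (-0.55, adjusted p = 0.0146) and Traf1 (-0.37, adjusted p = 0.0191). Of all 13574 tested genes, 102 were called higher and 171 lower in that comparison, 2.01% together. Of 16 IKK and NF-kB genes, 9 rose and 4 fell in control cells, beside 28.5% and 31.8% of all tested genes. In deficient cells 8 rose and 4 fell, beside 28.3% and 29.6%, and the medians were 0.17 and 0.16. Nfkbie, an inhibitor of NF-kB, rose by 1.88 and 1.74 and was lower in deficient stimulated cells (-0.35, adjusted p = 0.0351). It was the 1 gene of the 16 called there, beside 2.01% of all tested genes. With stimulation Nfkb1 rose by 1.62 and 1.63, Nfkbia by 0.85 and 0.95 and Nfkbib by 1.14 and 1.13.

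Of 18 tested genes that carry the death signal, 6 rose and 9 fell in control cells, beside 28.5% and 31.8% of all tested genes, and 6 rose and 9 fell in deficient cells, beside 28.3% and 29.6%. Their medians were -0.21 and -0.17. Cflar, the inhibitor of caspase 8 at Fas, rose from 112 ± 5.84 to 437 ± 27.1 CPM in control cells (SD, n = 4 and 3) and from 110.4 ± 6.06 to 425 ± 10.4 CPM in deficient cells (n = 3 each). Cycs (cytochrome c) rose by 1.26 and 1.31 and Bid by 0.94 and 0.96, while Casp9 fell by 2.01 in each. Between genotypes in stimulated cells edgeR called 0 of the 18 (3 at an unadjusted p under 0.05) and DESeq2 called 1. Over all 13574 tested genes edgeR called 273 (1629 at an unadjusted p under 0.05). DESeq2 called 524 of the 18872 genes with reads and gave 7324 no adjusted p. Over the 90 tested genes of all 5 lists, edgeR called 0 between genotypes in unstimulated cells (18 at an unadjusted p under 0.05) and DESeq2 called 5. Over all tested genes edgeR called 44 there (1171 at an unadjusted p under 0.05). DESeq2 called 159 and gave 9152 no adjusted p. For the difference of responses edgeR called 0 of the 90 (6 at an unadjusted p under 0.05) and DESeq2 called 3. Over all tested genes edgeR called 1 (510 at an unadjusted p under 0.05). DESeq2 called 40 and gave 11711 no adjusted p.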

How the data were processed

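Each library came with 2 tables deposited by the authors, one of read counts by gene symbol and one of log2 values. The submitters' processing notes name TopHat, HTSeq, DESeq2 and mm10, with no versions. The transformation behind the log2 values and the annotation, strand and multi-mapping settings of the counting are not given in the sources used here. 1 symbol with a missing cell was left out of 23337, and 18872 had reads. Counts of all 13 libraries were tested with edgeR 4.0.16 (R 4.3.3; minimum count of 10 in the filter, TMM factors, 1 mean per group, 9 residual degrees of freedom, no replicate block). The 9 genes and the gene lists were chosen with earlier results of these data known. Named list genes are the up to 4 called genes with the smallest p in each comparison. Tnfsf9 in control cells was named after its value was seen.

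Same-numbered libraries of 1 genotype deviated together (r of 0.489 to 0.83 over 9658 genes), so the number pairs the 2 states, and the pairing comes from the data and the numbers in the labels. The 24 alternatives included DESeq2 1.42.0, limma 3.58.1 on the deposited log2 values, other scalings and filters, sex as a term, the replicate block and each library left out. GENCODE vM21 names matched 20929 symbols. On simulated counts the test was checked for recovery. The floor covers counting error only, and 95% intervals of log2 differences use the SE and a t quantile with 9 degrees of freedom.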

Additional observations from a re-analysis of the deposited data

Results flagged for a closer look

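The response of Tnfrsf18 to stimulation differed between the genotypes by -1.0 on the log2 scale when same-numbered libraries were paired (edgeR's quasi-likelihood test, adjusted p = 0.0385). All 3 deficient pairs fell by more than any of the 3 control pairs, but how many of all tested genes separate this way was not counted. Without the pairing the difference was not called (-0.82, adjusted p = 1.0). Fas in control unstimulated library 3 lay at 6.3 CPM, apart from 3.91, 3.92 and 4.28 CPM in the others of its group. Among 9 groups of 4 values checked for such a gap, this was the 1 that met it. Chance gives about 1 in 20 for a single group, and more when 9 groups are checked.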

How the results depend on the processing

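Of 1071 receptor log2 differences recomputed under the alternatives, 967 kept direction and call, 59 changed sign without a call, 36 lost the call, 9 gained it and 0 reversed. Of 45 receptor differences, 12 were called and 0 of these changed sign, while 14 of the 26 never called changed sign under some alternative. Between genotypes in unstimulated cells, 0 receptors were called when only the groups compared were fitted, with the replicate block (number shared by the genotypes; Tnfrsf1b -0.27, adjusted p = 0.102), against a minimum fold of 1.5 or without deficient number 1, and 0 to 1 when libraries were left out. In stimulated cells 0 were called against that fold, and 0 to 1 with libraries left out. With stimulation, 2 were called against that fold in each genotype. The replicate block called 1 receptor for the difference of responses. Numbers are shared by the genotypes only as labels (r of -0.595 to -0.0568 between same-numbered libraries). All-gene counts moved more. In unstimulated cells 44 genes became 70 with upper-quartile scaling, 198 with sex as a term, 2 against the minimum fold, 159 with DESeq2, 74 without deficient number 1 and 17 to 74 with libraries left out. In stimulated cells 273 became 511 with sex, 12, 524 with DESeq2 and 129 to 369. With stimulation 8191 and 7856 became 3769 and 3489 against the fold. For the difference of responses 1 became 12 (upper quartile), 10 (no filter), 68 (replicate block), 19 (sex), 0 (fold), 40 (DESeq2), 13 (without deficient number 1) and 1 to 10 (libraries left out). The cause was not tested. Scaled by the longest transcript, levels in control unstimulated cells moved by more than their SD for Cd40, Tnfrsf18, Tnfrsf4 and Fas. They were 29.2 in place of 25.6 CPM per kb for Cd40, 8.02 for 6.26 (Tnfrsf18), 5.13 for 4.10 (Tnfrsf4) and 2.83 for 2.23 (Fas). Cd27, at 3.43 for 2.30, stayed within its SD of 1.23. The 10 to 37 Ngfr counts after stimulation and the 40 to 284 Cd27 counts limit their precision.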
